A study of Homo sapiens with 34 samples.

Results

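The genes described here are 10 markers of the 2 epithelial layers of the prostate: the basal keratins KRT5, KRT14, KRT15, KRT17 and KRT6A with the transcription factor TP63, and the simple-epithelial or luminal keratins KRT7, KRT8, KRT18 and KRT19. They were taken by symbol from a deposited table of read counts for 26336 genes, and all 10 were present. The choice by symbol was made with earlier results of these data known. The table holds poly(A) RNA-seq of 4 human prostate cell lines in 34 libraries and 17 groups. RWPE is a non-tumorigenic prostate epithelial line kept in serum-free keratinocyte medium with EGF and pituitary extract. LNCaP, from a lymph node metastasis, VCaP and MDAPCa2a, both from bone metastases, are cancer lines kept in medium with serum. The growth surface was plastic or amorphous calcium phosphate (ACP), a mineral layer that stands in for bone.

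Each line had a plastic group in its own control medium with 2 libraries, labelled as continuous culture. All other groups are labelled day 4. LNCaP and VCaP were also grown on plastic in charcoal-stripped serum, which is depleted of steroids, and on ACP in control medium, in stripped serum and in stripped serum with added androgen. MDAPCa2a had the same groups without ACP in control medium, and its plastic carried a protein coating that its ACP surface did not. RWPE had ACP in control medium and ACP with androgen, and no stripped group. A group has 2 libraries, with 2 exceptions: there are 3 of RWPE with androgen and a single one of VCaP in stripped serum on plastic. The androgen is labelled 100 mM, as DHT in the titles and as testosterone in the treatment field. Each line is a single cell line, and nothing in the labels says that replicates came from separate cultures, so p-values measure the spread between these libraries.

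Keratins form intermediate filaments only as pairs of a type I and a type II chain. In the prostate, basal cells pair KRT5 (type II) with KRT14, KRT15 or KRT17 (type I), while luminal cells pair KRT8 (type II) with KRT18 or KRT19 (type I). KRT6A, a type II keratin, is known from stressed and proliferating squamous epithelium. TP63 encodes p63, a member of the p53 family that maintains basal cells and activates basal keratin genes. KRT7 is a type II keratin of simple epithelia, and is often found together with KRT19. Loss of basal cells and of their keratins is a textbook feature of prostate adenocarcinoma.

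Promoter sequences are shown for TP63, KRT5 and KRT8, the listed genes with a promoter entry. TP63 and KRT5 were high and low together across the lines while KRT8 was not. Matches to the decamer shared by the p53 family are marked because p63 binds DNA through it. RefSeq (GRCh38.p14) promoter entries matched 3 of the 10 genes. Each run is the 150 bases before the entry's start site, 5′ to 3′ on the gene's own strand, with matches to the p53-family decamer on either strand in capitals. The windows lie at chr3:189631239-189631388 on the plus strand, chr12:52520395-52520544 on the minus strand and chr12:52926470-52926619 on the minus strand.
TP63: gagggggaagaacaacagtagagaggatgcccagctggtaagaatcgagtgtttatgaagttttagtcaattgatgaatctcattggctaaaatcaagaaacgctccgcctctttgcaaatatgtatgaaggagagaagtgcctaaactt
KRT5: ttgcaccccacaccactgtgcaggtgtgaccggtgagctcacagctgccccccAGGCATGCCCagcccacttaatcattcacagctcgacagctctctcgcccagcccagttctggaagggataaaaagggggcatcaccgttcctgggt
KRT8: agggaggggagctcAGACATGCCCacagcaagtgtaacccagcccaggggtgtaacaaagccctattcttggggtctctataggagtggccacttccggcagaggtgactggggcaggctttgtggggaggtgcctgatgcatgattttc
The decamer was present in the KRT5 and KRT8 windows and not in the TP63 window, against 3.17% of 35116 promoters of the same length. AGAACA, searched on both strands, was present in the TP63 window alone and in 7.37% of all promoters. The motif TATAAA was in none of the 3 windows and in 6.71% of all promoters. Neither was GGGCGG found there, which 36.8% of all promoters hold. The same held for TGANTCA, present in 4.17%. The TP63 window lies at the gene's upstream start and the KRT8 window at the start of an alternative transcript. Which starts these cells use was not measured, and a match is a description of the letters alone.

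Total counts ran from 34.9 to 44.8 M (mega) counts in the 8 plastic control libraries and from 15.4 to 37.0 M in the other 26. Plastic control and continuous culture go together in every line, so a library batch and the group cannot be told apart in comparisons that use plastic control on 1 side. Levels are given in CPM, the usual count rate per M counts of a library, after TMM scaling over all libraries. The lines matched their labels on independent markers: 8 further basal prostate genes, among them TRIM29, ITGB4 and COL17A1, summed to 1398 to 5321 CPM in RWPE and to 110 to 257 CPM in the cancer lines, and 6 luminal prostate genes, among them KLK3 and TMPRSS2, to 14.3 to 55.2 CPM in RWPE and to at least 1100 CPM in every cancer library. Endothelial markers summed to at most 0.82 CPM in RWPE and at most 36.6 CPM in any library. Other lists were higher: fibroblast markers reached 112 CPM in RWPE and 168 CPM in VCaP. Leukocyte markers summed to 77.2 to 113 CPM in RWPE and reached 156 CPM in VCaP. Neuroendocrine markers summed to 175 to 939 CPM in VCaP and at most 5.13 CPM in the other lines. In bulk RNA, fewer cells of a type and less RNA per cell cannot be told apart. The 3 RWPE libraries with androgen stood apart from each other. For the basal keratins replicate 2 lay below both libraries of ACP in control medium, and replicates 1 and 3 were lower still.

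The keratin make-up separated the 4 lines. Per transcript length, which allows genes to be compared, KRT5 made up 31.0%, KRT17 26.2% and KRT14 17.2% of the RNA of all 54 keratin genes in RWPE on plastic. KRT7 followed with 8.35%, KRT18 with 6.08% and KRT8 with 3.09%. In LNCaP on plastic, KRT18 with 51.0% and KRT8 with 42.6% left little for any other keratin. VCaP held KRT8 at 46.2%, KRT18 at 41.8% and KRT19 at 7.70%. MDAPCa2a differed from both by another large component, with KRT8 at 38.5%, KRT18 at 31.7% and KRT19 at 25.6%. These are shares of the keratin RNA within a library, not levels.

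**Figure D1:**
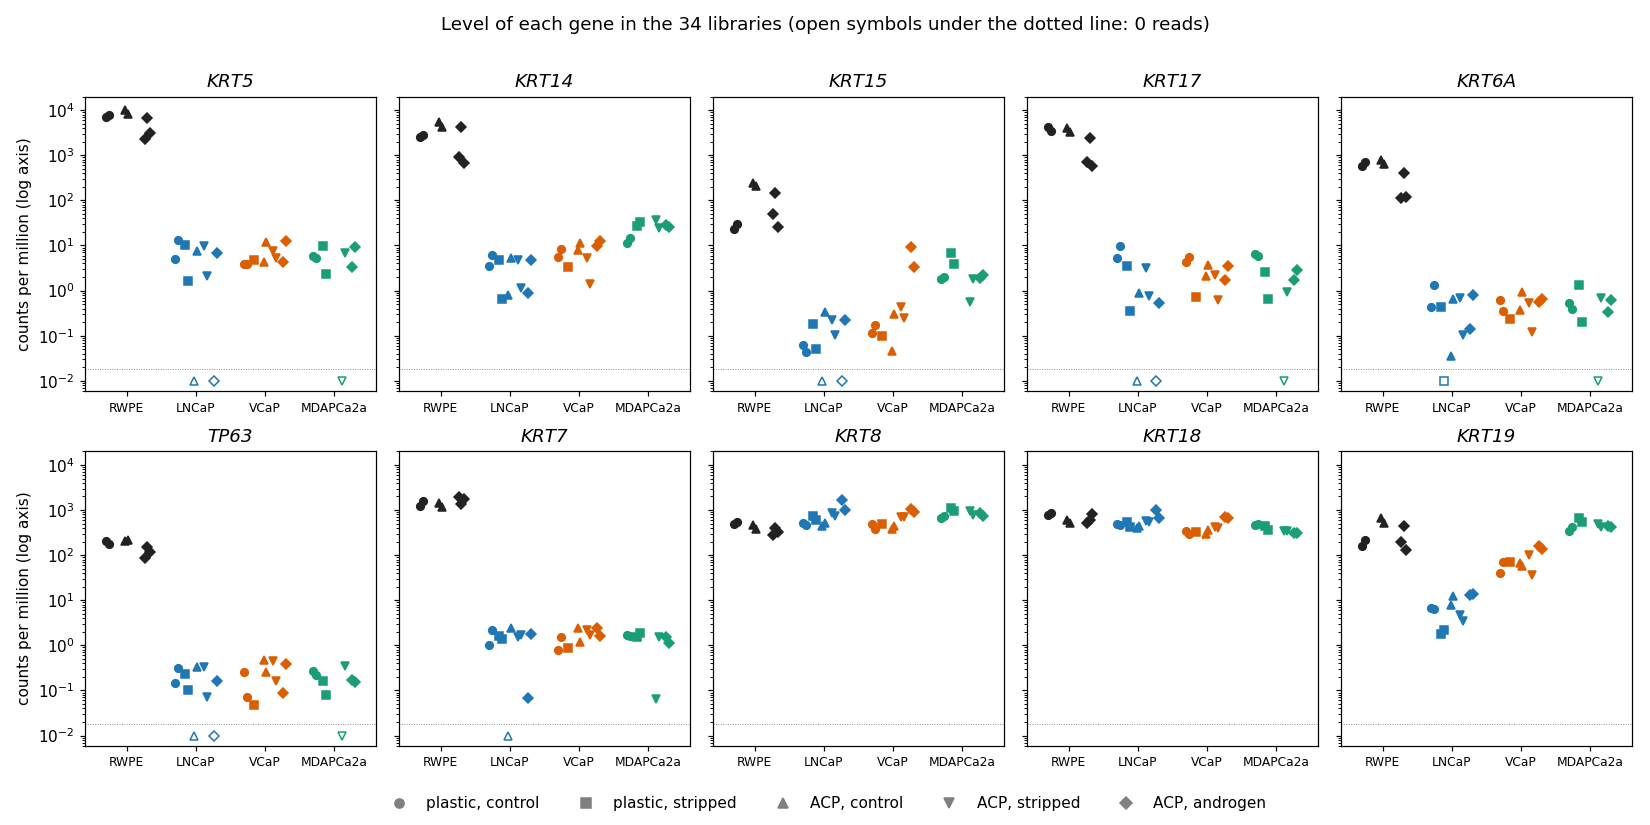
Level of each of the 10 genes in CPM (log axis) in every library, by line, with symbols for surface and medium. All 7 RWPE libraries lie above all 27 cancer libraries for KRT5, KRT14, KRT15, KRT17, KRT6A, TP63 and KRT7, while KRT8 and KRT18 overlap between lines, and open symbols mark libraries with 0 reads.

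In RWPE, the basal genes were high in every library. KRT5 was at 7230 and 7742 CPM on plastic, at 10153 and 8094 CPM on ACP in control medium, and at 2348, 6631 and 3060 CPM on ACP with androgen. KRT14 was at 2560 and 2879, at 5342 and 4224, and at 912, 4174 and 689 CPM in the same order. KRT17 was at 4139 and 3429, at 4106 and 3257, and at 699, 2411 and 590 CPM. All 3 were thus lowest with androgen in replicates 1 and 3, and replicate 2 lay well above those. TP63, whose protein drives the basal programme, was at 205 and 178 CPM on plastic, at 205 and 220 CPM on ACP, and at 88.3, 149 and 118 CPM with androgen. KRT6A ranged from 113 to 768 CPM and KRT15 from 23.3 to 238 CPM over the 7 libraries. KRT15, a keratin known from stem-like basal cells of several epithelia, was the lowest of the basal keratins in RWPE on plastic per length too, at 0.12% of the keratin RNA. The partners were not fixed in ratio: KRT14 per KRT5, per length, ran from 0.34 to 0.96.

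KRT5, KRT17, KRT6A, TP63 and KRT7 were close to absent from the cancer lines, with group means under 0.5% of the highest RWPE group in 14 of 14 cancer groups. KRT5 was at 0 to 13.0 CPM in LNCaP, with a median of 5.98 over 10 libraries, at 3.79 to 12.4 CPM in VCaP and at 0 to 9.99 CPM in MDAPCa2a. TP63 was at 0 to 0.33 CPM in LNCaP, at 0.048 to 0.47 CPM in VCaP and at 0 to 0.35 CPM in MDAPCa2a. Whether these are reads carried over from RWPE libraries was not tested. A set of 21 other genes of at least 100 CPM in each RWPE group and under 0.5% of it in the cancer lines is given for comparison: their median per library was 0.016% to 0.37% of the mean of the 7 RWPE libraries. The choice of these genes sets that median under 0.5%, so the counts against it are a description. Percentages of single libraries below are of the same RWPE mean. KRT5 was above that median in 2 of 27 cancer libraries, KRT17 in 0, KRT7 in 2, and TP63 and KRT6A in 5 each.

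In 3 of the 27 cancer libraries, KRT5, KRT17 and TP63 had no reads at all. They were LNCaP on ACP in control medium, replicate 1, LNCaP on ACP with androgen, replicate 1, and MDAPCa2a on ACP in stripped serum, replicate 1. In the same libraries 7, 4 and 9 of the 21 reference genes also had 0 reads, and the second library of each of these groups held 208, 212 and 116 reads of KRT5. In other groups the libraries were close, as for KRT5 in VCaP on plastic in control medium (3.79 and 3.81 CPM). At these depths a count of 0 allows up to 3 reads by counting error alone.

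KRT14 and KRT15 were more often above the reference median, KRT14 in 8 of 8 MDAPCa2a, 5 of 9 VCaP and 0 of 10 LNCaP libraries and KRT15 in 8, 5 and 4. In MDAPCa2a KRT14 was at 11.5 and 14.3 CPM on plastic in control medium, at 27.0 and 32.5 CPM in stripped serum, at 36.2 and 23.9 CPM on ACP in stripped serum, and at 28.0 and 25.2 CPM with androgen. That is 0.39% to 1.22% of the RWPE mean. The MDAPCa2a library with 0 reads of KRT5 held 569 reads of KRT14 and 9 of KRT15. Per length, KRT14 exceeded KRT5 by 2.95 to 21.1 times in the 7 MDAPCa2a libraries with KRT5 reads, where RWPE has a ratio of at most 0.96. In LNCaP KRT14 reached 6.07 CPM and in VCaP 12.7 CPM, both under 0.5% of the RWPE mean. KRT15 was at 0.57 to 6.84 CPM in MDAPCa2a and at 9.05 and 3.33 CPM in VCaP with androgen, against 0.44 CPM or less in the other 7 VCaP libraries.

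**Figure D2:**
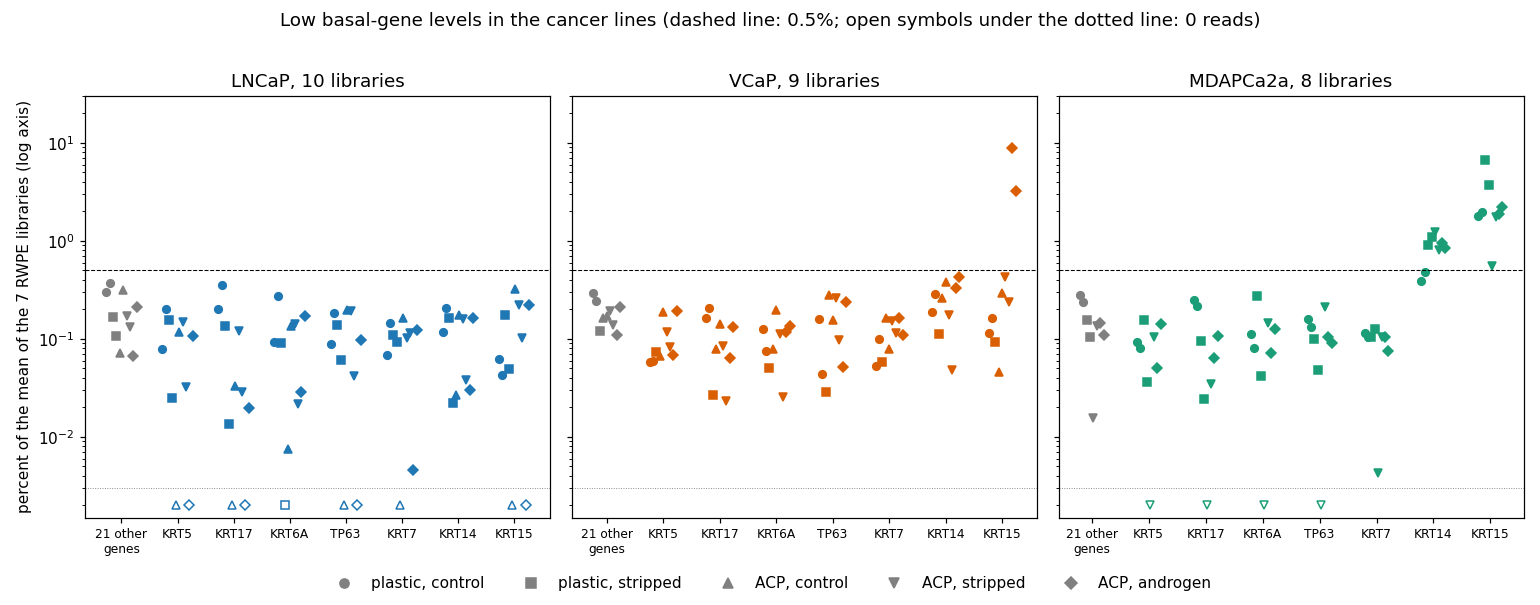
Level of 7 genes in each cancer library as a percent of the mean of the 7 RWPE libraries (log axis), beside the median of 21 other genes high in RWPE (grey). KRT14 and KRT15 in MDAPCa2a and KRT15 in VCaP with androgen lie above 0.5% (dashed line) in 6, 8 and 2 libraries, and open symbols mark 0 reads.

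The lines were compared with RWPE on plastic in control medium. In edgeR's quasi-likelihood test, at a Benjamini-Hochberg adjusted p below 0.05, LNCaP differed in 9 of the 10 genes, all lower (57.4% of 17323 genes tested were called, 27.9% lower). VCaP differed in 9, also all lower (62.4% called, 30.3% lower). MDAPCa2a differed in 9, of which 8 were lower and 1 higher (56.7% called, 28.4% lower and 28.3% higher). The median log2 difference of the 10 genes was -9.07, -9.08 and -8.49, beside 0.01, 0.04 and -0.0026 over all genes. With most of the table called, these counts say little about the 10 genes, whereas the size of the differences is far from the middle of the table.

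KRT5 was lower by a log2 difference of -9.69 ± 1.61 (SE) in LNCaP, -10.94 ± 1.70 in VCaP and -10.39 ± 1.66 in MDAPCa2a, with an adjusted p of at most 1.44e-05. TP63 had -9.69 ± 0.60, -10.19 ± 0.63 and -9.59 ± 0.61. KRT7, grouped with the luminal keratins by its tissue distribution, had -9.78 ± 0.89, -10.23 ± 0.91 and -9.74 ± 0.89. KRT7 thus differed between the lines in the manner of the basal genes. The remaining basal keratins lay between -8.58 and -10.45, except for KRT15 in VCaP (-7.49 ± 0.86) and for KRT14 and KRT15 in MDAPCa2a (-7.72 ± 1.01 and -3.78 ± 0.64). Since carry-over was not tested, the size of the largest differences is uncertain.

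**Figure D3:**
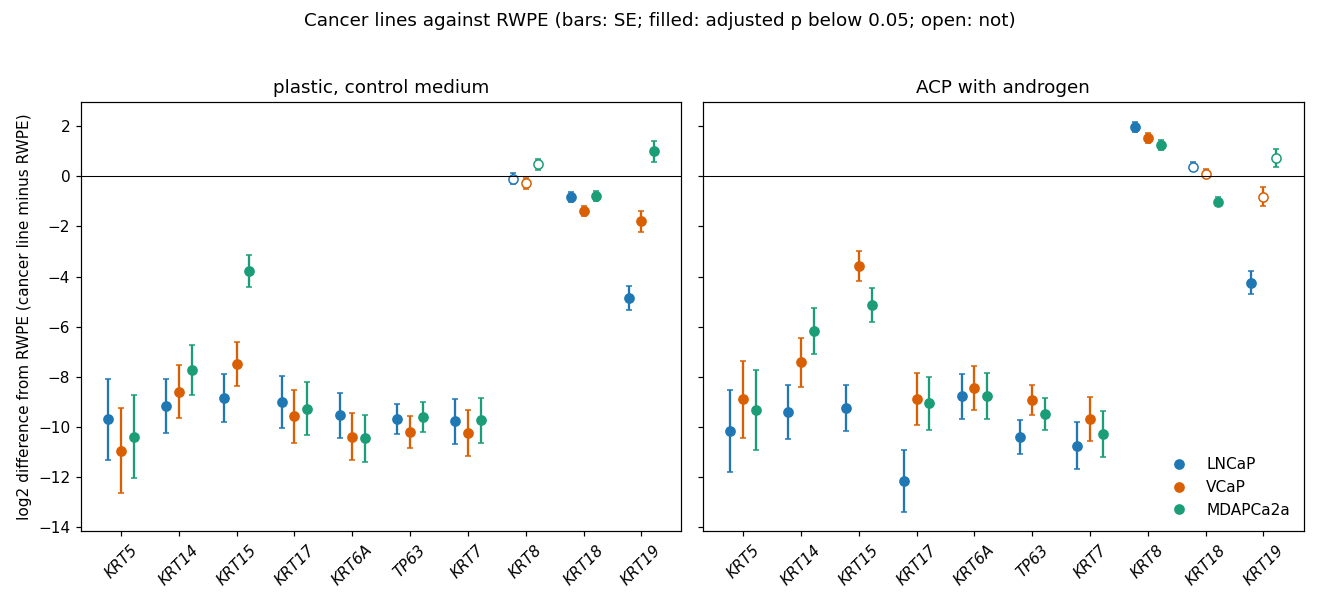
Log2 difference of each gene between a cancer line and RWPE with its standard error, on plastic in control medium (left) and on ACP with androgen (right); filled points passed the adjusted p of 0.05. KRT5, KRT17, KRT6A, TP63 and KRT7 lie between -8.44 and -12.15, and KRT8 is the gene above 0 in all 3 lines with androgen.

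The lines were also compared on ACP with androgen, where each has libraries at day 4. LNCaP differed in 9 of 10 genes (66.9% of genes called, 32.2% higher and 34.8% lower), VCaP in 8 (67.4%, 32.8% higher and 34.6% lower) and MDAPCa2a in 9 (64.0%, 29.9% higher and 34.2% lower), with 1 gene higher in each. That gene was KRT8, at 1650 and 978 CPM in LNCaP, 1042 and 896 CPM in VCaP, 844 and 754 CPM in MDAPCa2a, and 273, 402 and 320 CPM in RWPE. The 5 basal keratins and TP63 were lower in every line here too, by sizes that were not tested against those on plastic: KRT15 in VCaP had -3.58 here and KRT14 in MDAPCa2a -6.18. No cancer library overlapped RWPE in KRT8. Its log2 differences were 1.98 ± 0.20, 1.55 ± 0.20 and 1.27 ± 0.20 (adjusted p 4.02e-09, 2.33e-07 and 4.83e-06), and they passed whichever 1 library was left out. The fitted difference of KRT5 in LNCaP, -10.17, moved between -19.75 and -9.18 when 1 library was left out, because replicate 1 of LNCaP has 0 reads: -19.75 is the value from that library alone and is no measure of size.

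On plastic in control medium KRT8 did not pass the test against RWPE in any cancer line. It was at 484 and 549 CPM in RWPE, 506 and 463 CPM in LNCaP, 485 and 373 CPM in VCaP, and 682 and 755 CPM in MDAPCa2a. RWPE overlapped LNCaP and VCaP, and lay below MDAPCa2a (log2 difference 0.48 ± 0.22, adjusted p 0.0677). In the edgeR fit of the compared groups only, KRT8 in MDAPCa2a passed (0.46, adjusted p 0.00377).

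Its partner KRT18 was lower in all 3 cancer lines on plastic. KRT18 was at 782 and 863 CPM in RWPE, 479 and 459 CPM in LNCaP, 336 and 290 CPM in VCaP, and 462 and 495 CPM in MDAPCa2a. The log2 differences were -0.81 ± 0.20, -1.39 ± 0.20 and -0.78 ± 0.20 (adjusted p 0.0013, 2.05e-06 and 0.00185). On ACP with androgen KRT18 was lower in MDAPCa2a (-1.01 ± 0.19, adjusted p 5.42e-05) and did not pass in LNCaP (0.38 ± 0.18, adjusted p 0.0678, called higher by DESeq2 with adjusted p 0.0439) or VCaP (0.11 ± 0.18, adjusted p 0.597). The balance of the pair differed in value: KRT18 per KRT8, per length, was 1.64 to 3.09 in RWPE, 0.74 to 1.23 in LNCaP, 0.71 to 0.98 in VCaP and 0.44 to 0.84 in MDAPCa2a. RWPE did not overlap any cancer line in this ratio, which was not tested.

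KRT19 separated the 3 cancer lines. It was at 339 to 663 CPM in the 8 MDAPCa2a libraries, at 36.5 to 156 CPM in the 9 VCaP libraries and at 1.74 to 13.9 CPM in the 10 LNCaP libraries, with no overlap between the 3 lines. RWPE, at 130 to 651 CPM, overlapped MDAPCa2a and VCaP. On plastic in control medium KRT19 was lower than RWPE in LNCaP (log2 -4.86 ± 0.48, adjusted p 4.07e-09) and in VCaP (-1.79 ± 0.41, adjusted p 0.000582). In MDAPCa2a it was higher by 0.99 ± 0.40 (adjusted p 0.0386), a call that was lost whichever 1 of the 4 libraries was left out (log2 0.75 to 1.24, adjusted p 0.0527 to 0.237), with RLE size factors (0.90, adjusted p 0.0626) and in DESeq2 (adjusted p 0.0522).

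The cancer lines were also compared with each other on plastic in control medium. VCaP differed from LNCaP in 2 of the 10 genes (52.6% of genes called), MDAPCa2a from LNCaP in 3 (40.2%) and VCaP from MDAPCa2a in 4 (52.4%). KRT19 passed in all 3, with log2 3.07 ± 0.44 for VCaP against LNCaP, 5.85 ± 0.50 for MDAPCa2a against LNCaP and -2.78 ± 0.43 for VCaP against MDAPCa2a. KRT15 was higher in MDAPCa2a than in LNCaP (5.06 ± 1.03, adjusted p 0.000327) and VCaP was lower than MDAPCa2a (-3.71 ± 0.92, adjusted p 0.0015). These KRT19 and KRT15 calls passed whichever 1 library was left out. KRT5, KRT14, KRT17, KRT6A, TP63 and KRT7 did not pass in any of the 3. KRT14 in MDAPCa2a against LNCaP passed in the fit of the compared groups only (1.44, adjusted p 0.00053) and without the count filter (adjusted p 0.0438).

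The smaller differences of KRT8 and KRT18 were less firm. KRT8 was higher in MDAPCa2a than in LNCaP by 0.57 ± 0.22 (adjusted p 0.0412), which was lost whichever 1 of the 4 libraries was left out (adjusted p 0.0771 to 0.188). VCaP lay below MDAPCa2a in KRT8 by -0.75 ± 0.22 (adjusted p 0.00641), lost without VCaP replicate 2 (-0.57, adjusted p 0.092). KRT18 was lower in VCaP than in LNCaP by -0.58 ± 0.20 (adjusted p 0.0174), and this was lost without LNCaP replicate 1 (-0.55, adjusted p 0.0774) or VCaP replicate 2 (-0.48, adjusted p 0.127). It was lower in VCaP than in MDAPCa2a by -0.61 ± 0.20 (adjusted p 0.0129), lost without VCaP replicate 2 (-0.51, adjusted p 0.104) or MDAPCa2a replicate 2 (-0.56, adjusted p 0.0706).

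ACP was compared with plastic. In RWPE in control medium 1 of the 10 genes passed (4.16% of 14293 genes called). It was KRT15, at 23.3 and 30.3 CPM on plastic and at 238 and 204 CPM on ACP, a log2 difference of 3.07 ± 0.63 (adjusted p 0.0284). The 2 groups were far apart, but the call was lost whichever 1 of the 4 libraries was left out (log2 2.89 to 3.27, adjusted p 0.101 to 0.21). KRT19 was at 160 and 220 CPM on plastic and at 651 and 527 CPM on ACP (1.65 ± 0.46, adjusted p 0.0717). KRT5 (0.31 ± 0.40), TP63 (0.18 ± 0.24) and KRT7 (-0.06 ± 0.23) had small differences that did not pass.

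In the cancer lines 1 call was made between surfaces. In LNCaP in control medium 0 of 8 tested genes passed (12.6% of genes called), with 2, KRT17 and KRT19, at an unadjusted p below 0.05 and 1 called by DESeq2. In VCaP it was 0 of 10 (0.0448% called), with 0 at an unadjusted p below 0.05 and 0 by DESeq2. In stripped serum, where plastic and ACP are both labelled day 4, KRT19 was higher on ACP in LNCaP (6.12% of genes called). It was at 4.62 and 3.43 CPM, against 1.74 and 2.24 CPM on plastic, a mean of 0.34% of the highest RWPE group. This difference of 1.07 ± 0.28 (adjusted p 0.0458) was lost without plastic replicate 1 (0.80, adjusted p 0.289), ACP replicate 1 (0.83, adjusted p 0.251) or ACP replicate 2 (1.25, adjusted p 0.114), and in the fit of all libraries (adjusted p 0.279). VCaP in stripped serum gave 0 of 10 (0% called), also 0 at an unadjusted p below 0.05 and by DESeq2, with 1 library on plastic whose spread is taken from the other groups. MDAPCa2a gave 0 of 9 (0.00734% called), with KRT15 alone at an unadjusted p below 0.05 and by DESeq2. Without MDAPCa2a ACP replicate 2, which leaves the library with 0 reads of KRT5, 3 genes passed: KRT15 (-3.11), KRT7 (-4.56) and KRT5 (-10.29).

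KRT19 fell in LNCaP on both surfaces in steroid-depleted serum. On plastic KRT19 was at 6.68 and 6.42 CPM in control medium and at 1.74 and 2.24 CPM in stripped serum, a log2 difference of -1.68 ± 0.27 (adjusted p 0.00345, 1 of 8 tested genes, 9.45% of genes called). The call was lost without stripped replicate 1 (-1.45, adjusted p 0.0592). On ACP it was at 8.05 and 12.4 CPM in control medium and at 4.62 and 3.43 CPM in stripped serum (-1.36 ± 0.26, adjusted p 0.0119, 1 of 8 genes, 5.37% called), lost without stripped replicate 1 (-1.58, adjusted p 0.0558) or 2 (-1.17, adjusted p 0.117) and in the fit of all libraries (adjusted p 0.103). The KRT19 groups did not overlap on either surface. KRT8 did not pass, with an unadjusted p below 0.05 on both surfaces. On plastic KRT8 was at 506 and 463 CPM in control medium and at 753 and 589 CPM in stripped serum. On ACP it was at 445 and 517 against 841 and 755 CPM, called higher by DESeq2 (0.71, adjusted p 0.0249). The unfiltered edgeR fit called it higher on both surfaces (adjusted p 0.0378 and 0.00223).

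In the other lines 1 call was made for stripped serum. VCaP had 0 of 10 genes on plastic (0.890% of genes called), with KRT17 alone at an unadjusted p below 0.05 and by DESeq2, and 0 of 10 on ACP (0.820% called), with 2, KRT14 and KRT8, by either measure. In MDAPCa2a on plastic 1 of 9 genes passed (1.58% called): KRT14 was at 11.5 and 14.3 CPM in control medium and at 27.0 and 32.5 CPM in stripped serum (1.24 ± 0.25, adjusted p 0.0485). The groups did not overlap, and the call was lost whichever 1 of the 4 libraries was left out (log2 1.07 to 1.39, adjusted p 0.135 to 0.449) and in the fit of all libraries (adjusted p 0.527). At an unadjusted p below 0.05 there were 5 of 9 genes (KRT14, KRT15, KRT17, KRT8 and KRT19), and DESeq2 called 2.

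**Figure D4:**
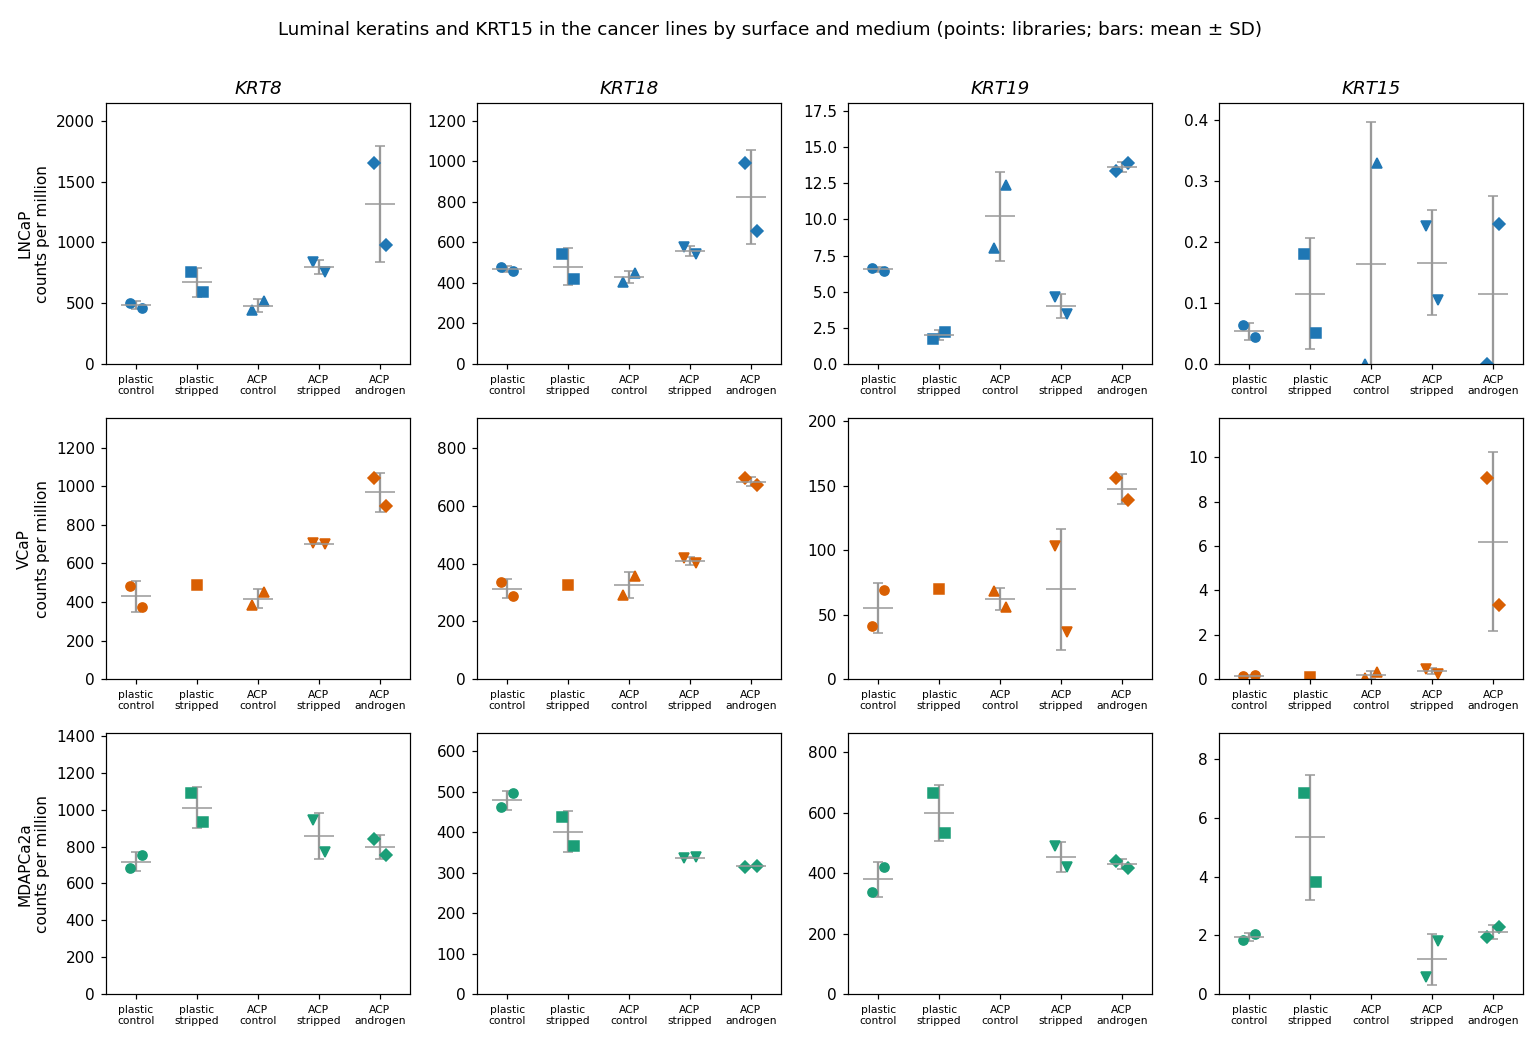
KRT8, KRT18, KRT19 and KRT15 in the cancer lines by surface and medium, in CPM (points are libraries, bars the mean and SD of groups with 2 libraries, drawn no lower than 0). KRT19 in LNCaP is low in stripped serum and highest with androgen, and KRT15 in VCaP stands out with androgen at 9.05 and 3.33 CPM.

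Added androgen on ACP was set against stripped serum on ACP, a comparison in which both groups are day 4. In LNCaP 1 of 8 tested genes passed (7.73% of genes called). KRT19 was at 4.62 and 3.43 CPM without and at 13.4 and 13.9 CPM with androgen, a log2 difference of 1.74 ± 0.26 (adjusted p 0.00289) that passed whichever 1 library was left out. Its level with androgen was also above the 6.68 and 6.42 CPM of plastic in control medium. On ACP in control medium KRT19 was at 8.05 and 12.4 CPM, and its difference from androgen medium did not pass. KRT8 was at 841 and 755 CPM without and at 1650 and 978 CPM with androgen (0.71 ± 0.22, adjusted p 0.0699), and KRT18 was at 576 and 541 against 989 and 658 CPM (0.55 ± 0.19, adjusted p 0.0986). Both were called by DESeq2 and, in edgeR, without LNCaP androgen replicate 2 (1.05 and 0.83).

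In VCaP 3 of 10 genes rose with added androgen (17.5% of genes called, 8.67% higher). KRT15 was at 0.44 and 0.25 CPM without and at 9.05 and 3.33 CPM with androgen, 9 and 6 reads against 209 and 76. The log2 difference was 4.17 ± 0.75 (adjusted p 0.00689), it passed whichever 1 library was left out, and the level with androgen was 2.80% of the highest RWPE group. KRT18 was at 418 and 401 CPM without and at 696 and 674 CPM with androgen (0.74 ± 0.20, adjusted p 0.0288), which was lost whichever 1 of the 4 libraries was left out (adjusted p 0.0834 to 0.109) although the size stayed between 0.71 and 0.82. KRT14 was at 5.17 and 1.43 against 9.82 and 12.7 CPM (1.78 ± 0.52, adjusted p 0.0425), under 0.5% of RWPE throughout, and lost without stripped replicate 2 (1.12, adjusted p 0.111), androgen replicate 1 (1.98, adjusted p 0.0764) or androgen replicate 2 (1.58, adjusted p 0.171), and in the fit of all libraries (adjusted p 0.128). KRT5, the partner of KRT14 and KRT15, and TP63, whose protein activates basal keratin genes, did not pass.

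In the same VCaP libraries 7 leukocyte markers summed to 83.6 and 156 CPM with androgen, against 15.5 and 9.10 CPM in stripped serum. Of this sum LYZ, the gene of lysozyme, made up 81.2 and 154 CPM, whereas PTPRC was at most 0.05 CPM and CD3E at 0 in both groups. The 8 fibroblast markers summed to 11.2 and 12.6 CPM with androgen and 45.3 and 168 CPM without, the 5 endothelial markers to 12.4 and 12.4 against 0.83 and 1.60 CPM, and the 5 neuroendocrine markers to 231 and 175 against 380 and 939 CPM. The 6 luminal prostate genes summed to 19779 and 11709 against 8762 and 8995 CPM. The part of these markers in the KRT15 difference was not tested.

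In MDAPCa2a added androgen gave 0 of 9 tested genes (0% of genes called), with KRT17 alone at an unadjusted p below 0.05 and 0 by DESeq2. KRT8 was at 945 and 771 CPM without and at 844 and 754 CPM with androgen (-0.15 ± 0.19), and KRT19 at 489 and 419 against 441 and 418 CPM (-0.12 ± 0.20). The difference of the androgen effect between VCaP and LNCaP was tested itself. None of the 10 genes passed (10.9% of 17323 genes called), with KRT15 (4.69 ± 1.83, adjusted p 0.102) and KRT17 at an unadjusted p below 0.05, and KRT15 called by DESeq2. The unfiltered edgeR fit called KRT15 (4.70, adjusted p 0.0186) and KRT17 (3.81, adjusted p 0.019) as well. In LNCaP KRT15 had 7 reads or fewer in all 4 libraries of this comparison.

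Against control medium on ACP, which differs from androgen medium in serum treatment as well, KRT8 and KRT18 were higher with androgen in both LNCaP and VCaP. These comparisons share the androgen libraries with those above. In stripped serum on ACP, KRT8 in LNCaP was at 841 and 755 CPM, between the other 2 media with no overlap. In LNCaP 2 of 8 genes passed, both higher (15.1% of genes called, 7.76% higher). KRT8 was at 445 and 517 CPM in control medium and at 1650 and 978 CPM with androgen (1.42 ± 0.22, adjusted p 0.00292), which passed whichever 1 library was left out. KRT18 was at 407 and 449 against 989 and 658 CPM (0.92 ± 0.19, adjusted p 0.0095), lost without control replicate 1 (0.86, adjusted p 0.0559) or androgen replicate 1 (0.57, adjusted p 0.0753).

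In VCaP 3 of 10 genes passed, all higher (5.99% called, 3.71% higher). KRT8 was at 382 and 452 CPM in control medium and at 1042 and 896 CPM with androgen (1.24 ± 0.22, adjusted p 0.0138), lost without control replicate 1 (1.13, adjusted p 0.121), control replicate 2 (1.35, adjusted p 0.112) or androgen replicate 1 (1.13, adjusted p 0.0849). KRT18 was at 293 and 357 against 696 and 674 CPM (1.10 ± 0.20, adjusted p 0.0152), lost whichever 1 of the 4 libraries was left out (adjusted p 0.0603 to 0.13). KRT15 had 1 and 7 reads against 209 and 76 (5.10 ± 0.81, adjusted p 0.00976), lost without control replicate 1 (4.36, adjusted p 0.0798) or androgen replicate 1 (4.22, adjusted p 0.0696). KRT8 in stripped serum, at 704 and 699 CPM, lay between the other 2 media with no overlap.

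In RWPE, androgen medium on ACP went with lower basal gene levels. By the treatment protocol, which does not name RWPE, androgen medium also holds stripped serum, where the RWPE control medium has none. Taken so, androgen and serum cannot be told apart. Of the 10 genes 4 fell (19.1% of 14293 genes called, 8.05% lower). KRT5 fell by 1.16 on the log2 scale (SE 0.36, adjusted p 0.0463), KRT17 by 1.55 (SE 0.49, adjusted p 0.0493), KRT6A by 1.71 (SE 0.47, adjusted p 0.0318) and TP63 by 0.82 (SE 0.22, adjusted p 0.029). KRT6A was at 768 and 656 CPM in control medium and at 113, 409 and 118 CPM with androgen. For each of the 4 all 3 androgen libraries lay below both control libraries. The same held for KRT14, KRT15 and KRT19, which did not pass. The share of all genes without overlap was not counted.

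**Figure D5:**
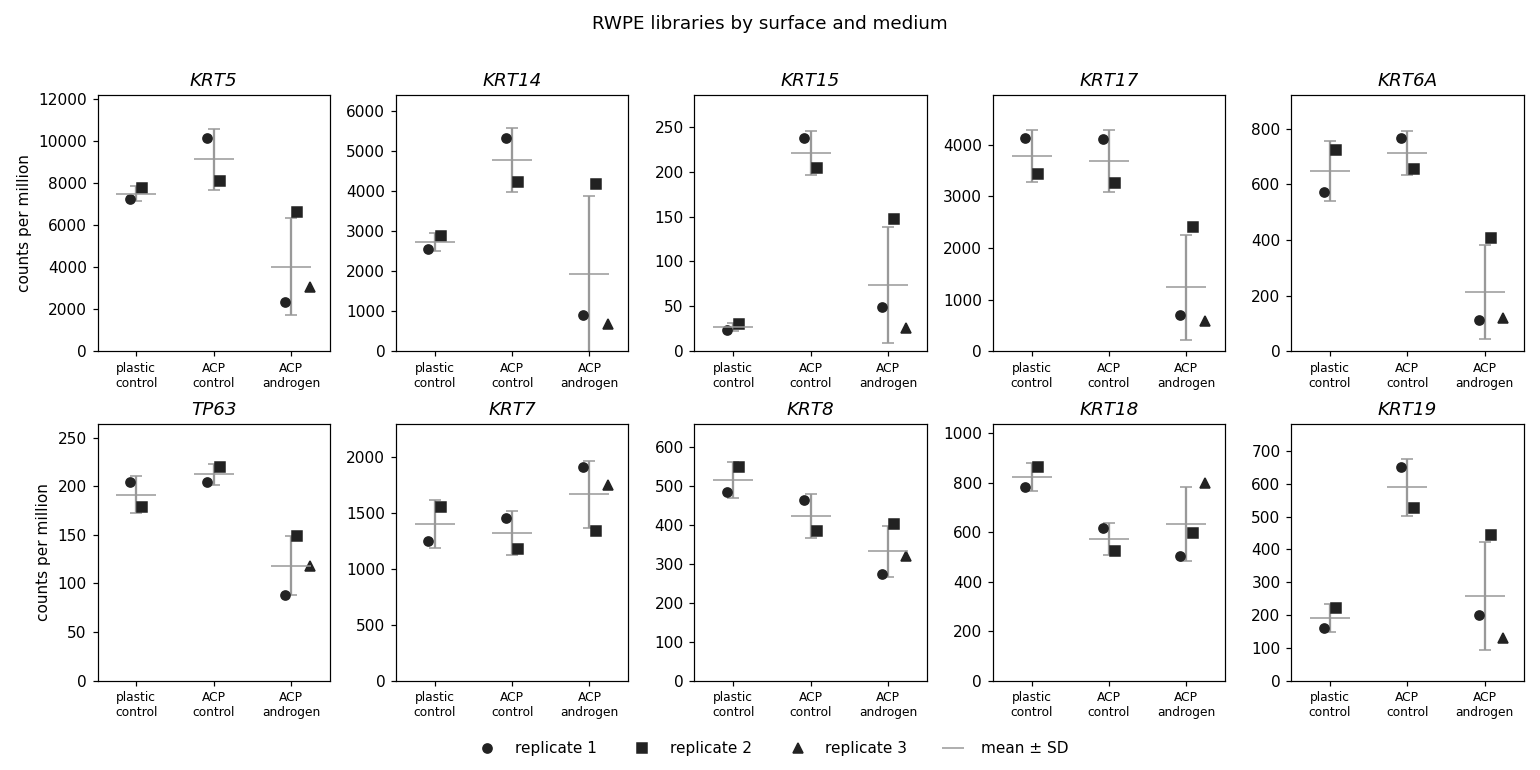
The 10 genes in the 7 RWPE libraries by surface and medium, in CPM on an axis from 0, with the mean and SD of each group (bars drawn no lower than 0) and a symbol for each replicate number. With androgen replicate 2 lies above replicates 1 and 3 for the 5 basal keratins, TP63, KRT8 and KRT19, while KRT7 has the reverse order.

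These calls depended on single libraries. Without androgen replicate 2 the count rose to 7, with KRT14 (-2.56, adjusted p 0.000469), KRT15 (-2.54, adjusted p 0.00167) and KRT19 (-1.82, adjusted p 0.00446) added. Without control replicate 1, control replicate 2 or androgen replicate 1 it was 0, with KRT5 at -1.06, -1.29 and -0.89 (adjusted p 0.31, 0.143 and 0.0958), KRT17 at -1.45, -1.69 and -1.27, KRT6A at -1.67, -1.80 and -1.41, and TP63 at -0.93, -0.75 and -0.65. The direction held throughout. KRT17 and KRT6A did not pass in DESeq2 (adjusted p 0.0951 and 0.0681), nor KRT5, KRT17 and TP63 in a fit of all libraries (0.461, 0.102 and 0.0952).

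None of the luminal keratins passed the test here. KRT19 was at 651 and 527 CPM in control medium and at 199, 445 and 130 CPM with androgen, without overlap. Its unadjusted p was below 0.05 in edgeR. The unfiltered fit called it lower (-1.18, adjusted p 0.0114), as did the fit of all libraries (-1.19, adjusted p 0.0262). The replicate block did so too (-0.95, adjusted p 0.0108), while DESeq2 did not. KRT7 was at 1453 and 1178 CPM in control medium and at 1906, 1332 and 1749 CPM with androgen (0.36 ± 0.21, adjusted p 0.237). KRT18 was at 616 and 525 against 504, 595 and 800 CPM, and KRT8 at 464 and 384 against 273, 402 and 320 CPM, neither past the test. KRT7 per KRT5, per length, was 1.17, 0.29 and 0.82 in the 3 RWPE libraries with androgen. On ACP in control medium it was 0.21 in each of the 2 libraries, so replicate 2 lay above both. The median of all 7 was 0.29. Markers of other cells in these libraries were as follows: 7 leukocyte markers, most of it CD68, summed to 77.2 to 83.3 CPM with androgen and 81.5 to 94.9 CPM without, with PTPRC at most 0.06 CPM, and 8 fibroblast markers to 54.0 to 56.2 against 88.7 and 112 CPM. Total counts were 19.7 to 23.5 M with androgen and 20.6 and 31.5 M without. The part of depth and of these markers was not tested.

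Genes that anchor keratin filaments at desmosomes and hemidesmosomes were read from a list of 22. In RWPE with androgen against control medium on ACP, 10 of 20 tested were lower and 0 higher (8.05% of all genes lower), with a median of -0.86 on the log2 scale, beside -0.02 over all genes. The desmosomal plaque protein genes PKP1 (-1.51 ± 0.30) and DSP (-1.27 ± 0.25) had the largest falls among those of at least 5 CPM. Of the 8 further basal prostate genes, of which COL17A1, ITGB4 and DST stand in both lists, 6 were lower (median -1.02). Against RWPE on plastic, 13, 14 and 15 of 21 anchoring genes were lower in LNCaP, VCaP and MDAPCa2a and 3, 3 and 1 higher, with medians of -2.52, -1.67 and -2.78, and 7 of 8 basal prostate genes were lower in each line, where 27.9%, 30.3% and 28.4% of all genes were lower.

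Of the 45 other keratins in the table, 19 were tested between lines. Against RWPE on plastic 12 were lower in LNCaP, 13 in VCaP and 12 in MDAPCa2a, and 3, 1 and 1 were higher (medians -3.95, -4.58 and -4.57). Of all genes 27.9%, 30.3% and 28.4% were lower. KRT16, the partner of KRT6A, had 450 ± 21.8 CPM (SD, n = 2) in RWPE but at most 0.67 CPM on average in a cancer line (log2 -9.40 to -11.22). KRT6B had 8.47 CPM on average in RWPE and no reads in MDAPCa2a, and KRT13 had 8.50 CPM in RWPE (log2 -7.85 in LNCaP). KRT6C was among the 3 higher in LNCaP, with 6.89 and 7.58 CPM there against 1.49 and 1.51 CPM in RWPE (2.26 ± 0.44), and 0.015 and 0.028 CPM on average in VCaP and MDAPCa2a. KRT80 reached 104 ± 45.1 CPM in RWPE and 53.5 ± 5.15 CPM in MDAPCa2a. It was at 2.32 ± 0.03 CPM in LNCaP (log2 4.52 ± 0.65 for MDAPCa2a against LNCaP) and 1.65 ± 0.80 CPM in VCaP. KRT10, a keratin of differentiating epidermis, was higher on ACP than on plastic in RWPE (137 ± 22.3 against 51.8 ± 1.77 CPM, log2 1.42 ± 0.22, adjusted p 0.0113) and in LNCaP (72.3 ± 12.5 against 37.8 ± 6.55 CPM, 1.04 ± 0.22, adjusted p 0.0174). In LNCaP on plastic it was also higher in stripped serum than in control medium (70.8 ± 20.1 CPM, 0.95 ± 0.22, adjusted p 0.0229), and in stripped serum no call was made between ACP (74.9 CPM) and plastic. KRT20 was higher on ACP in LNCaP in control medium as well, at 20.7 ± 25.9 against 1.69 ± 0.01 CPM (3.70 ± 1.03, adjusted p 0.0409), with an SD above its mean. Among 8 keratin pseudogenes in the table, the highest group mean was 1.12 CPM, for KRT8P41.

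Counting can mix close copies of these genes. Of the 50-base words in the reference transcript, 39.1% in KRT6A, 39.7% in KRT8, 35.1% in KRT18, 23.8% in KRT14 and 17.4% in KRT17 also occur in transcripts of other genes, against 3.99% in KRT5, under 2% in KRT15, KRT7 and KRT19, and 0 in TP63. KRT6C shares 35.2% of the words of KRT6A, so the reads of these 2 could be split between them, and the same holds for KRT14 with KRT16 (11.2%). KRT8 and KRT18 lie on opposite strands of chromosome 12 with overlapping gene models. KRT7 overlaps KRT86 and an antisense gene, and TP63 an antisense gene. The use of strand is not given in the sources used here, so reads of overlapping genes cannot be told apart.

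Patterns over the 17 group means were compared by Pearson's r of log2 CPM, among 13218 genes of at least 5 CPM in some group. Group means share libraries within a line, so these values mostly restate the split of RWPE from the cancer lines. Nearest to TP63 were CCDC8 (0.994), SOX15 (0.991) and IL20RB (0.990). Nearest to KRT5 were KRT7 (0.990), KRT16 (0.985) and KRT17 (0.984), and nearest to KRT7 RAB38 (0.991), DSG3 (0.991) and IL20RB (0.991). KRT14 was nearest to INPP5D (0.978) and KRT15 to PI3 (0.959). KRT18 and KRT8 gave other neighbours: BAIAP2L1 for KRT18 (0.926) and HKR1 for KRT8 (0.843). KRT8 and KRT18 had r = 0.18 with each other, KRT8 and KRT19 r = 0.00, and KRT8 and KRT5 r = -0.54.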

How the data were processed

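Poly(A) RNA of 34 libraries was read as counts per gene symbol. The deposited values are raw counts in 1 table, which the authors made with STAR and HTSeq on hg19, per the submitters' processing notes. Versions, gene annotation and strandedness: not given in the sources used here. Columns were matched to samples by name, and 0 were left over.

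The genes, lists and alternatives were chosen with earlier results of these data known. Named genes are the 10 listed, in comparisons those past the threshold, and, among other keratins and anchoring genes, those among the 2 largest rises and falls with at least 5 CPM, not all of which are printed. Tests used edgeR 4.0.16 in R 4.3.3 (quasi-likelihood F test, TMM, filterByExpr with a minimum count of 10, Benjamini-Hochberg over all genes tested, threshold 0.05). The 26 comparisons and 1 interaction used a fit of all 34 libraries between lines and of 1 line within lines. Standard errors are the log2 difference over the root of F. The filter left out KRT15 and TP63 in LNCaP and TP63 in MDAPCa2a. Lengths come from the shortest APPRIS principal transcript of GENCODE 29, used for lengths, names and neighbours only. The test code was checked on simulated counts.

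Alternatives were RLE size factors, no count filter, DESeq2 1.42.0, a replicate block, a fit of all libraries or of the compared groups only, and leaving out each library (55 fits). Replicates of a group differed beyond sampling noise in 18 of 18 pairs (lowest chi-square per gene 10.2). Intervals and the limit of 3 reads for a count of 0 cover counting error only.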

Additional observations from a re-analysis of the deposited data

How the results depend on the processing

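Of 80 calls of the 10 genes in 27 comparisons, 58 were kept in every fit run, 60 were kept whichever library was left out and 6 were lost whichever was left out, and no direction turned. RLE size factors lost 1 of the 80, DESeq2 3, the unfiltered fit 0, and the fit of the compared groups only 0 of 62. Of 18 calls within lines the fit of all libraries lost 7. Counts of called genes that moved by over 1.5 times were as follows. For RWPE on ACP against plastic (1) the unfiltered fit gave 2, the replicate block 3 and the fit of all libraries 2. For LNCaP on ACP against plastic it was 0, with 2 unfiltered, 1 by DESeq2 and 1 in the fit of all libraries, and in stripped serum 1, with 0 in the fit of all libraries. For MDAPCa2a on ACP against plastic (0) the unfiltered fit and DESeq2 gave 1 each. Stripped serum on plastic gave 1 in LNCaP and 3 unfiltered, 0 in VCaP and 1 unfiltered and by DESeq2, and 1 in MDAPCa2a with 3 unfiltered, 0 with the replicate block, 2 by DESeq2 and 0 in the fit of all libraries. On ACP it gave 1 in LNCaP, with 3 unfiltered, 2 by DESeq2 and 0 in the fit of all libraries, and 0 in VCaP, with 1, 2 and 1. Added androgen in LNCaP (1) gave 4 unfiltered and 3 by DESeq2. RWPE with androgen (4) gave 7 unfiltered, 7 with the replicate block and 2 by DESeq2. The VCaP minus LNCaP difference (0) gave 2 unfiltered and 1 by DESeq2. The cause of these changes was not tested.

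Leaving out 1 library gave counts of 1 to 2 for VCaP against LNCaP (2), 2 to 4 for VCaP against MDAPCa2a (4), 0 for RWPE on ACP against plastic (1), 0 to 1 for LNCaP on ACP against plastic in control medium (0) and in stripped serum (1), 0 to 3 for MDAPCa2a in stripped serum (0), 0 to 1 for LNCaP stripped serum on plastic and on ACP (1 each), 0 for MDAPCa2a stripped serum (1), 1 to 3 for added androgen in LNCaP (1) and in VCaP (3), 0 to 7 for RWPE with androgen (4), 1 to 2 for LNCaP (2) and 0 to 2 for VCaP (3) with androgen against control medium. In such fits a lone library is assumed to vary like the others.

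Replicate numbers did not pair the libraries: deviations of same-numbered libraries correlated at -0.25 to 0.25 over the pairs of groups. The replicate block lost 4 of the 80 calls, among them KRT19 in VCaP against RWPE on plastic (-0.64, adjusted p 0.395) and KRT15 in MDAPCa2a against RWPE on plastic (-1.95, adjusted p 0.0622). With 2 libraries in most groups, each line's fit left 4 or 5 residual degrees of freedom and the joint fit 17. Basal gene levels under 0.5% of RWPE, and KRT19 in LNCaP on plastic in stripped serum, cannot be told from carried-over reads.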
